A study of Mus musculus with 44 samples.

Results

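The 191 probes described here report RNAs that were present throughout the differentiation of C2C12 cells and rose strongly in input RNA within the first 3 days. They were chosen on the 15 input arrays alone: the signal was quantile normalized and taken to log2, and a probe was kept when its detection p-value was under 0.05 on all 15 input arrays and its day 3 mean lay at least 1.5 above its day 0 mean. On a log2 scale a difference of 1 is a 2-fold change. The 191 members were 2.09% of the 9122 probes detected on all input arrays and 0.743% of the 25697 probes on the array. Without the condition on detection, 322 probes rose by at least 1.5.

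C2C12 is an established line of mouse myoblasts. Day 0 cells were kept in growth medium with serum, and cells of the later days were moved to differentiation medium, which is low in horse serum, for the stated number of days. Input RNA was taken from these cells without pulldown on days 0, 3 and 6, with 5 arrays a day. RNA bound to beads coated with an AUF1 antibody was measured on days 0 (4 arrays), 2 (3), 4 (3) and 6 (4), and RNA bound to beads with control IgG on days 0 (4), 2 (3), 4 (4) and 6 (4). All groups are the same unmodified line, and pulldowns and input share no time point between days 0 and 6. The labels do not say whether the arrays of a group came from separate cultures, so the p-values below measure only the spread between these arrays, which may be technical.

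Myoblasts deprived of serum leave the cell cycle and fuse into multinucleated myotubes, and many RNAs for the contractile apparatus and for muscle metabolism accumulate in the process. AUF1, the product of the gene Hnrnpd, is a protein that binds AU-rich elements in many mRNAs and can change their stability or translation. An IgG pulldown recovers what sticks to beads and antibody without a specific target and serves as the control. The identifiers of the array probes are not paired with genes in the sources used here, and members are therefore given by probe identifier, without gene roles, sequences or a check of muscle markers. In bulk RNA, fewer cells holding an RNA and less of it per cell cannot be told apart.

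Signal quality differed between the kinds of array. The share of all probes detected was 44.7% to 48.7% on input arrays, 25.6% to 46.8% on IgG arrays and 24.4% to 45.5% on AUF1 arrays. Of the members, 142 (74.4%) were detected on all 15 IgG arrays and 132 (69.1%) on all 14 AUF1 arrays. On all 29 pulldown arrays together 127 members were detected (66.5%), against 45.3% of the probes detected on all input arrays. No member was undetected on every pulldown array. A total of 190 members were detected on at least 3 of the 29 pulldown arrays and could be tested there. The remaining member, ILMN_1217728, was detected on 2 IgG arrays and on 0 AUF1 arrays.

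In input RNA most members reached their new level by day 3 and stayed near it on day 6. Because day 3 and day 0 chose the members, and day 6 is read against the same arrays, these values are a description without a test. The rise by day 3 had a median of 1.93 on the scale of the selection, with the middle 50% of members between 1.66 and 2.54 and the highest at 5.72. It was 1.5 to 2 in 103 members, 2 to 3 in 58, 3 to 4 in 15 and at least 4 in another 15. The probe just inside the limit, ILMN_2633367, rose by 1.5010, and the probe just outside, ILMN_2828768, by 1.4977.

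All 5 day 3 arrays lay above all 5 day 0 arrays in 183 members, and all 5 day 6 arrays did so in 178. The choice by input rise favours both counts, and the same share over all always-detected probes is not given here. From day 3 to day 6 the median further change was 0.14, and 167 members stayed within 0.5 of their day 3 mean. A further gain of at least 0.5 was seen in 17 members and a loss of at least 0.5 in 7. On day 6 the change from day 0 was still at least 1.5 in 173 members and under it in 18. The lowest change on day 6 was 0.81, so every member's day 6 mean was above its day 0 mean.

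From here on, levels are log2 values after background correction and quantile normalization, within the input arrays or within the pulldown arrays. On that scale the members' median change in input was 2.27 on day 3 and 2.43 on day 6. Their day 0 levels ran from 5.11 to 11.64 with a median of 7.41, so the strong risers included both dim and bright probes at the start.

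One day 0 input array stood apart from the other 4 for these probes. On array 45, labelled experiment 4, the members' median level was 8.04, against 6.93 to 7.51 on the other day 0 input arrays. There 157 of 191 members lay above their mean on the other day 0 arrays, by a median of 0.78, while the other always-detected probes had a median difference of -0.086. Among the 30 members that rose by at least 3, the median difference was 1.88 and 29 lay above. Arrays 33 and 36, both labelled experiment 1, went the other way, with 32 and 25 of 191 members above the other day 0 arrays. Their median differences were -0.40 and -0.50, and array 45 is among the arrays they were read against. Taken against array 45 alone, the median rise by day 3 was 1.58 and 111 members reached 1.5. Against each of the other day 0 arrays the median rise was 1.90 to 2.30, with 144 to 183 members at 1.5 or more. Chosen without array 45, there were 229 members, which included 184 of the 191. Whether array 45 differed in the cells, the RNA or the labelling was not tested.

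With array 45 among them, the day 0 input arrays spread more than the later ones, and their SD without array 45 is not given. The median SD of a member was 0.554, 0.344 and 0.264 for days 0, 3 and 6 (n = 5 arrays each). Over all always-detected probes it was 0.333, 0.270 and 0.240, so the members spread more than other probes on each day and most of all on day 0.

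The 2 members with the highest rise in input were ILMN_2610744 and ILMN_2482209. ILMN_2610744 had levels of 7.86, 6.45, 9.31, 8.08 and 11.35 on the day 0 input arrays, the last of them on array 45. On day 3 its levels were 14.43, 14.71, 14.43, 14.56 and 14.43, and on day 6 they were 14.43, 14.49, 14.49, 14.49 and 14.56. The day 0 values spread widely and all lay below the later arrays. After quantile normalization the later arrays were nearly equal to each other, while their signals before it ran from 20703.4 to 29952.2. ILMN_2482209 had day 0 levels of 5.90, 6.02, 7.35, 6.27 and 9.90, the last again on array 45. It stood at 13.01 to 13.38 by day 3, and between 13.34 and 13.47 by day 6, without overlap with day 0.

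**Figure D1:**
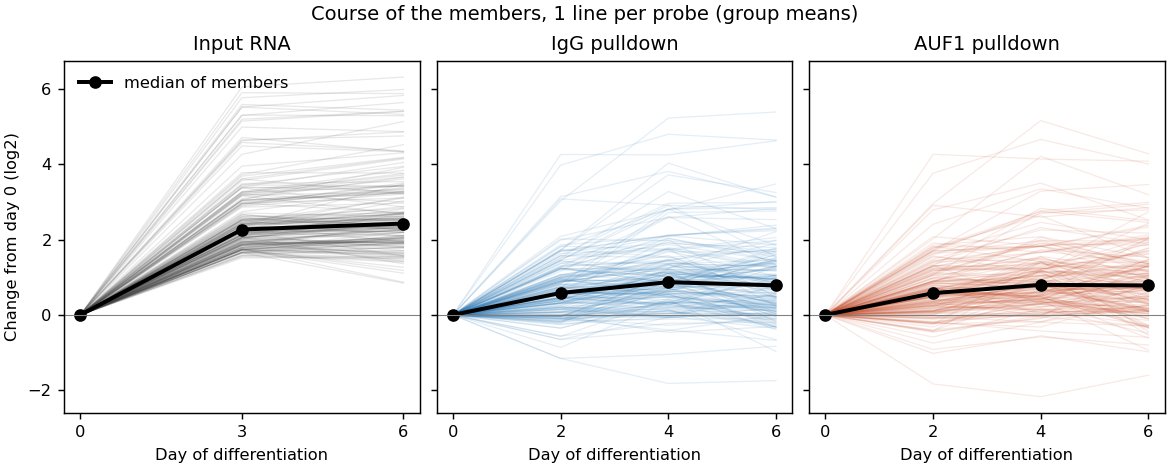
Change of each member from its day 0 mean (log2, vertical axis) against day of differentiation, in input RNA (grey), IgG pulldown (blue) and AUF1 pulldown (orange). Each thin line is 1 of the 190 tested members drawn through group means, and the black line is the median of the members, which reached 2.43 in input, 0.78 in IgG and 0.78 in AUF1 pulldowns on day 6.

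In the IgG pulldown, whose arrays had no part in choosing the members, most members also lay above day 0. Their median change from day 0 was 0.58, 0.87 and 0.78 for days 2, 4 and 6, while the median of all 13812 tested probes was -0.0086, -0.026 and -0.017. Of the 190 tested members 152, 175 and 162 were above their day 0 mean. These 3 comparisons share the day 0 arrays, and the plot of changes by day shows that most members lay above day 0 by day 2.

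Single members passed the test in part. With limma's moderated test and Benjamini-Hochberg adjustment over all tested probes, 23 members (12.1%) were called higher on day 2, where 0.652% of all tested probes were. On day 4 the count was 56 (29.5%) against 1.35% of all tested probes, and on day 6 it was 58 (30.5%) against 1.94%. No member was called lower on any of the 3 days by limma at adjusted p under 0.05, where 0.203%, 0.355% and 0.384% of all tested probes were. At an unadjusted p under 0.05, 2, 1 and 2 members were lower. All 4 day 6 arrays lay above all 4 day 0 arrays in 78 members (41.1%), against 5.12% of all tested probes.

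The IgG counts moved with the treatment of the arrays. With experiment numbers entered as a replicate block over all 29 pulldown arrays, 48 members were called higher on day 2 (1.62% of all tested probes). Without array 11 of day 2 the count was 11. Array weights gave 72, 99 and 104 members on days 2, 4 and 6. In that fit IgG array 7 of day 6 had a weight of 13.9, and the other IgG day 6 arrays 0.291 to 1.31. Median scaling in place of quantile normalization gave 3, 15 and 20 members. The share of all tested probes called with array weights or median scaling is not given here. These counts alone therefore do not say how the members compared with other probes. Within single experiment numbers the members' median change was 0.48 to 0.64, 0.79 to 1.05 and 0.71 to 0.90 for these 3 days.

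The AUF1 pulldown gave a like course. The members' median change was 0.58, 0.80 and 0.78 for the same days, beside -0.060, -0.044 and 0.014 over all tested probes. Above day 0 were 163, 175 and 166 of the 190 members. On day 2, 26 members (13.7%) were called higher by limma at adjusted p under 0.05, against 0.941% of all tested probes. On day 4 there were 42 (22.1%) against 1.27%, and on day 6 there were 71 (37.4%) against 4.14%. Called lower were 0, 1 and 1 member, against 0.775%, 0.420% and 3.33% of all tested probes, and at an unadjusted p under 0.05 limma gave 2, 1 and 3. All day 6 arrays lay above all day 0 arrays in 78 members (41.1%), against 7.62% of all tested probes.

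Here too the arrays mattered for the counts. Array weights gave 57 and 89 members on days 2 and 4, and without the arrays that detected under 30% of the probes the day 2 count was 13. Median scaling gave 2, 4 and 21 members called higher. Under that scaling the median of all tested probes shifted by -0.533 on day 2 and -0.332 on day 4. The members' median turned to -0.38 on day 2, which was above that of all probes, and was 0.12 on day 4. Without AUF1 array 18 of day 0 the day 2 count was 17, and without array 10 of day 0 it was 38. The share of all tested probes called under these alternatives is not given here. The counts alone therefore do not say how the members compared with other probes. Within single experiment numbers the AUF1 medians of the members were 0.41 to 0.67, 0.75 to 1.03 and 0.56 to 1.04 for the 3 days in turn.

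**Figure D2:**
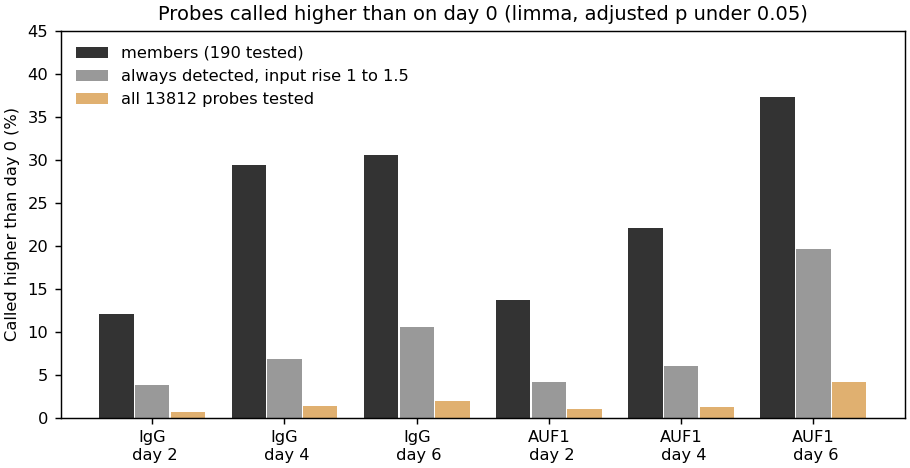
Share of probes called higher than on day 0 (limma, adjusted p under 0.05, vertical axis in %) for each pulldown and day. Black bars are the 190 tested members, grey bars the 265 tested always-detected probes whose input rise was 1 to 1.5, and sand bars all 13812 tested probes. The members' bars run from 12.1% to 37.4%. Under median scaling the counts behind them fall to between 2 and 21 members, and the share of all tested probes under that scaling is not given.

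Members with a larger rise in input had larger median changes in both pulldowns. On day 6 the IgG pulldown had a median change of 0.52 in the 102 tested members with an input rise of 1.5 to 2, of 0.97 in the 58 with a rise of 2 to 3, and of 1.70 in the 30 with a rise of 3 or more. Called higher in these 3 sets were 22 (21.6%), 18 and 18 (60.0%), against 1.94% of all tested probes. In the AUF1 pulldown the medians were 0.67, 0.93 and 1.93, with 29 (28.4%), 20 (34.5%) and 22 (73.3%) called higher, against 4.14% of all tested probes.

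Below the limit of the rule the same readout was lower. The 265 tested probes with an input rise of 1 to 1.5 had a median day 6 change of 0.40 in the IgG and 0.44 in the AUF1 pulldown. Of them 28 (10.6%) and 52 (19.6%) were called higher, against 1.94% and 4.14% of all tested probes. Always-detected probes within 0.25 of 0 in input had medians of -0.03 and 0.01. The 168 tested probes that fell by 1.5 or more in input had medians of -0.42 and -0.40. Called lower were 18 (10.7%) in the IgG and 30 (17.9%) in the AUF1 pulldown, against 0.384% and 3.33% of all tested probes. The difference between these tiers was not tested.

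The change in pulldown can be set beside the change in input only as a description, because the members were chosen for a large rise over the same day 0 input arrays. From day 0 to day 6 the IgG change lay below the input change in 186 of 190 members, and the AUF1 change did so in 182, counts that this choice favours. Across the 190 members, the input change and the IgG change on day 6 correlated with a Pearson r of 0.529 and a Spearman rho of 0.358, and the input and AUF1 changes with 0.462 and 0.272. These describe probes that share arrays and normalization and are not independent replicates. Input and pulldown arrays were normalized apart from each other in these values.

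**Figure D3:**
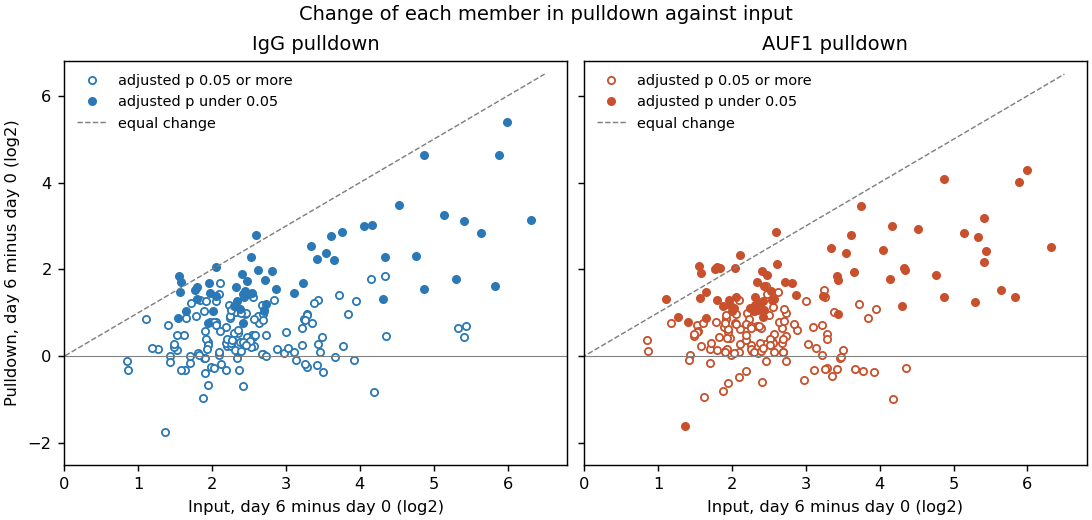
Day 6 minus day 0 in pulldown (log2, vertical axis) against the same change in input (log2, horizontal axis) for the 190 tested members, IgG on the left and AUF1 on the right. Filled points have a limma adjusted p under 0.05 in the pulldown (58 higher for IgG; 71 higher and 1 lower for AUF1), and 186 and 182 points lie under the dashed line of equal change, which the choice of members by their input rise favours.

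Levels of pulldown and input were also set side by side after all 44 arrays were normalized together, a choice made after seeing the data. On day 0 every IgG array lay above every input array in 38 of 191 members (19.9%), against 12.1% of the always-detected probes, and below in 19 (9.95%), against 17.1%. On day 6 the IgG arrays lay below the input arrays in 118 members (61.8%), against 25.4%. The AUF1 arrays lay above the input arrays in 44 members on day 0, against 17.2%, and below in 31 (16.2%), against 22.4%. On day 6 they lay below in 121 (63.4%), against 26.8%. Relative to input, then, the members stood lower in both pulldowns on day 6 than on day 0, with median differences that went from 0.36 to -1.15 for IgG and from 0.31 to -1.32 for AUF1. The input arrays in these differences are those that chose the members, so they have no test.

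Most members called with IgG on day 6 were also called with AUF1. Of the 58 members called higher on day 6 in the IgG pulldown and the 71 in the AUF1 pulldown, 52 were called in both, which is 89.7% of the IgG and 73.2% of the AUF1 calls. Over all tested probes 224 were called in both (1.62%), which is 83.6% of the IgG and 39.2% of the AUF1 calls. In all, 77 members were called in either. Across the 190 members the day 6 changes in the 2 pulldowns correlated with a Pearson r of 0.886 and a Spearman rho of 0.848, against 0.731 and 0.588 over all tested probes, as a description across probes. The 2 pulldowns were measured on different arrays but are not independent: deviations of same-numbered AUF1 and IgG arrays correlated at 0.26 to 0.77 on day 0, and at 0.16 to 0.84 on day 6.

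ILMN_2610744 was among the 2 highest called members in 5 of the 6 pulldown comparisons with day 0. Its IgG levels were 8.17, 9.81, 9.06 and 8.79 on day 0, and 12.84, 13.15 and 12.83 on day 2. They were 13.46, 13.50, 13.98 and 14.09 on day 4, and 13.50, 13.68, 13.68 and 13.56 on day 6. No later array came near the day 0 arrays. The IgG changes of 3.98 ± 0.32, 4.80 ± 0.30 and 4.65 ± 0.30 (estimate ± SE) had limma adjusted p-values of 2.36e-08, 1.09e-10 and 2.26e-10.

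In the AUF1 pulldown ILMN_2610744 had levels of 8.88, 10.29, 9.59 and 9.04 on day 0. The levels were 12.99, 13.23 and 13.43 on day 2, and 13.76, 14.09 and 14.48 on day 4, and 13.12, 13.08, 13.83 and 13.80 on day 6. As with IgG, the groups of later days did not overlap with day 0. The AUF1 changes were 3.77 ± 0.32, 4.66 ± 0.32 and 4.01 ± 0.30 (estimate ± SE), with limma adjusted p-values of 7.69e-08, 1.16e-09 and 5.9e-09.

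ILMN_2954987 stood at an intermediate level on day 2 in both pulldowns. Its IgG levels were 5.96, 6.44, 6.67 and 6.19 on day 0, then 8.69, 10.26 and 9.07 on day 2. On day 4 they were 10.94, 10.91, 12.30 and 12.04, and on day 6 they were 11.42, 12.23, 11.97 and 11.21. The day 2 arrays lay between day 0 and the later days without overlap. The IgG changes were 3.03 ± 0.40, 5.23 ± 0.37 and 5.39 ± 0.37 (estimate ± SE; limma adjusted p of 6.48e-05, 7.62e-10 and 5.21e-10).

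With AUF1, ILMN_2954987 had day 0 levels of 6.66 to 7.79, and ranges of 9.87 to 10.70, 11.85 to 12.62 and 11.04 to 11.97 for days 2, 4 and 6. Its AUF1 changes were 2.96 ± 0.40, 5.16 ± 0.40 and 4.28 ± 0.37 (estimate ± SE; limma adjusted p of 7.74e-05, 5.44e-09 and 2.83e-08). In input it stood at 5.82, 4.88, 6.71, 5.28 and 8.66 on day 0 (the last on array 45). Its later input arrays lay between 11.35 and 12.72.

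ILMN_2747959 was near its later level by day 2. Its IgG levels ranged over 6.59 to 8.60, 11.46 to 12.11, 11.57 to 12.13 and 12.01 to 12.44 for days 0, 2, 4 and 6. The corresponding AUF1 ranges were 7.18 to 9.29, 12.24 to 13.01, 11.98 to 12.80 and 12.30 to 12.53. Its changes were 4.26 ± 0.40, 4.25 ± 0.37 and 4.63 ± 0.37 with IgG and 4.27 ± 0.40, 4.14 ± 0.40 and 4.09 ± 0.37 with AUF1 (estimate ± SE), and the highest of the 6 limma adjusted p-values was 4.22e-07.

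ILMN_2482209, the second of the highest risers in input, changed by 3.14 ± 0.38, 3.81 ± 0.35 and 3.14 ± 0.35 with IgG and by 2.79 ± 0.38, 3.50 ± 0.38 and 2.52 ± 0.35 with AUF1 (estimate ± SE). The highest of its 6 limma adjusted p-values was 8.33e-05. In both pulldowns its day 0 levels, 7.66 to 9.22 with IgG and 8.14 to 9.79 with AUF1, lay below those of every later array.

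On day 6, 28 of the 190 tested members lay below day 0 with IgG and 24 with AUF1, and 1 of them, ILMN_1221750, was called lower with AUF1. In input ILMN_1221750 went from 5.93, 5.65, 6.60, 6.41 and 8.03 on day 0 (the last on array 45) to 8.27, 8.15, 8.76, 9.04 and 8.74 on day 3. On day 6 it stood at 8.31, 7.77, 7.58, 8.13 and 7.63, where 4 of the 5 day 0 arrays lay below. In the AUF1 pulldown its levels were 8.16, 7.04, 8.35 and 9.50 on day 0, then 6.79, 5.40 and 7.10 on day 2. They were 6.58, 4.98 and 6.70 on day 4, and 6.68, 6.85, 6.28 and 6.84 on day 6. All AUF1 arrays of days 4 and 6 lay below those of day 0, and 1 array of day 2 and 1 of day 4 did not detect the probe.

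The AUF1 changes of ILMN_1221750 were -2.17 ± 0.52 on day 4 and -1.60 ± 0.48 on day 6 (estimate ± SE; limma adjusted p of 0.0259 and 0.0406). The calls were lost in 7 of 14 and in 9 of 15 alternatives, with limma adjusted p-values of up to 0.688 and 0.752, and the sign held in all of them. In the IgG pulldown the probe had day 0 levels of 6.98 to 9.48 and day 6 levels of 5.78 to 6.84. Its IgG changes on days 4 and 6 were -1.82 ± 0.48 and -1.75 ± 0.48 (estimate ± SE) and did not pass the test (limma adjusted p of 0.052 and 0.0554).

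**Figure D4:**
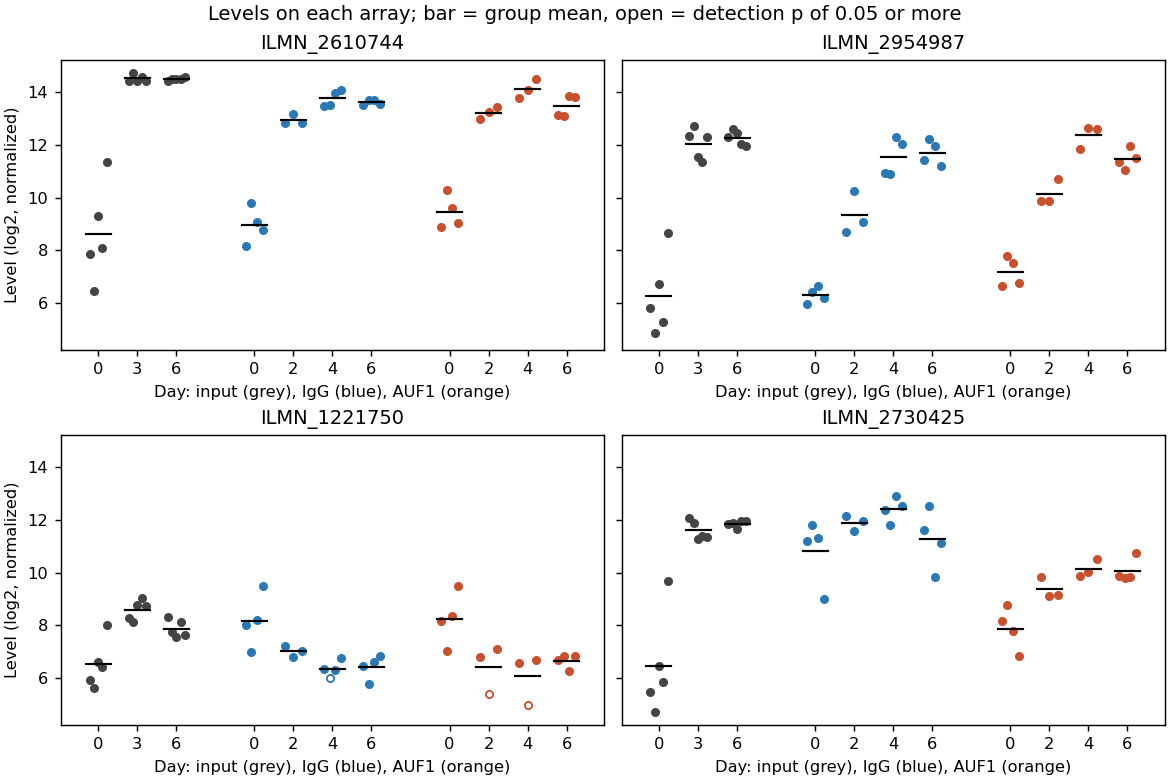
Normalized log2 level on each array (vertical axis) of 4 members, for input (grey; days 0, 3 and 6), IgG (blue) and AUF1 (orange; days 0, 2, 4 and 6). Bars are group means and open points are arrays with a detection p-value of 0.05 or more. ILMN_2610744 and ILMN_2954987 are higher on every later array than on day 0. ILMN_1221750 is higher in input on day 3 and lower in both pulldowns on days 4 and 6, called only with AUF1. ILMN_2730425 lies lower in AUF1 than in IgG pulldown. Input and pulldown arrays were normalized separately.

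The AUF1 pulldown was then set against the IgG pulldown over the 4 days. After quantile normalization this asks whether a member stood higher, relative to other probes, with AUF1 antibody than with control IgG. It does not compare the amounts recovered. Averaged over days, 18 members were called higher with AUF1 and 29 lower by limma at adjusted p under 0.05, where 9.33% of all tested probes were higher and 11.8% lower. Together 24.7% of the tested members were called against 21.1% of all tested probes, a share close to the background. The median difference of the members was -0.10, beside -0.021 over all tested probes. Members called lower included 11 (5.79%) with a difference of at least 1, against 2.22% of all tested probes. No member (0) was called higher by at least 1 by limma, against 0.210% of all tested probes.

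By day, the members' median difference was -0.07, -0.07, -0.13 and -0.07 for days 0, 2, 4 and 6. Its size without regard to sign had a median of 0.334, 0.407, 0.474 and 0.174 on these days, beside 0.264, 0.389, 0.344 and 0.143 over all tested probes, and was smallest on day 6 in both. With experiment numbers as a replicate block within each day, 42 members were called higher and 58 lower, against 22.8% and 24.5% of all tested probes. This block includes day 4, where same-numbered AUF1 and IgG arrays correlated at only -0.09 to 0.72. Median scaling moved the median of all tested probes by -0.565 and gave 0 members higher and 121 lower (48.1% of all tested probes lower). The mean detected share was 29.7% to 39.9% in the AUF1 groups and 40.1% to 43.1% in the IgG groups, and its part in these differences was not tested. Without AUF1 array 22 of day 4, 9 members were called higher.

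**Figure D5:**
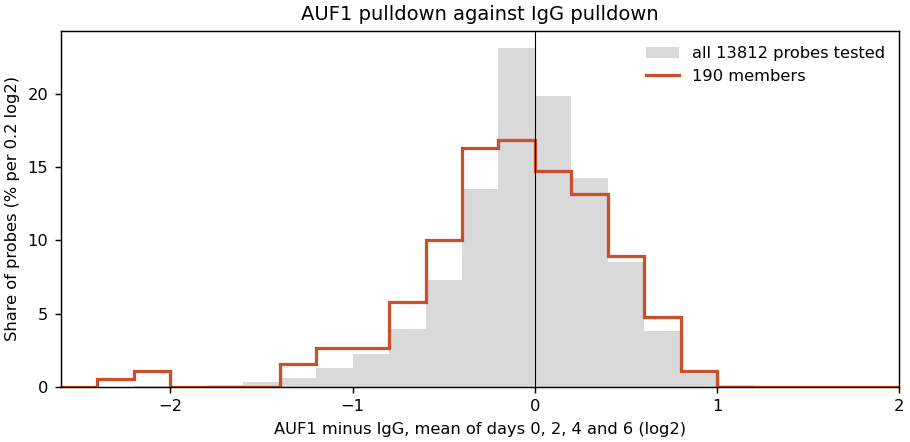
Share of probes (%, vertical axis) by AUF1 minus IgG, averaged over days 0, 2, 4 and 6 (log2, horizontal axis, steps of 0.2), for the 190 tested members (orange outline) and all 13812 tested probes (grey). The members' median is -0.10, and their outline reaches lower than -2 on the left and ends near 1 on the right; under median scaling the median of all tested probes moves to -0.565.

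ILMN_2730425 and ILMN_2416670 were the lowest in AUF1 relative to IgG. For ILMN_2730425 the IgG levels were 11.20, 11.80, 11.32 and 9.0 on day 0 and 11.62, 12.51, 9.83 and 11.13 on day 6. The AUF1 levels were 8.17, 8.76, 7.78 and 6.83 on day 0 and 9.87, 9.79, 9.83 and 10.74 on day 6. As groups the antibodies did not overlap on day 0 and did on day 6, where the pair of experiment 3 stood at 9.83 with both. The other IgG arrays of day 6 lay above every AUF1 array of that day. On days 2 and 4 it stood at 11.59 to 12.91 with IgG and at 9.12 to 10.53 with AUF1. Over the 4 days the difference was -2.24 ± 0.27 (estimate ± SE; limma adjusted p of 1.4e-05).

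In input ILMN_2730425 was at 5.49, 4.74, 6.48, 5.85 and 9.68 on day 0 (the last on array 45) and at 11.29 to 12.09 on day 3. Its rise in the AUF1 pulldown by day 6 was 2.17 ± 0.51 (estimate ± SE; limma adjusted p of 0.00842), and its IgG change was 0.44 ± 0.51 (adjusted p of 0.987). After joint normalization of all arrays its day 0 mean was 10.96 with IgG, 8.06 with AUF1 and 6.21 in input, so the day 0 means of both pulldowns lay above that of input.

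ILMN_2416670 had a like pattern. Its IgG levels were 11.68, 11.07, 10.94 and 10.39 on day 0 and 12.21, 12.69, 10.29 and 11.69 on day 6. Its AUF1 levels were 8.75, 8.82, 7.56 and 8.64 on day 0 and 11.20, 10.49, 10.27 and 11.54 on day 6. Again the antibodies were apart on day 0 and overlapped as groups on day 6, there only through the IgG array of experiment 3 at 10.29. AUF1 was the lower in all 14 pairs of the same day and experiment number. In the day 6 pairs of experiments 3 and 4, however, AUF1 minus IgG was only -0.01 and -0.15. The mean difference was -2.17 ± 0.22 (estimate ± SE; limma adjusted p of 2.63e-06). With AUF1 it rose by 2.44 ± 0.42 by day 6 (limma adjusted p of 0.000618), and with IgG it changed by 0.70 ± 0.42 (adjusted p of 0.684). In input its day 0 levels were 5.89, 5.51, 6.42, 5.66 and 9.09, the last on array 45, and its day 3 levels were 11.80 to 12.46. The AUF1 minus IgG calls of both probes held under all 36 alternatives.

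The highest in AUF1 relative to IgG were ILMN_2944508 and ILMN_2613904, and the sign of both depended on the scaling. ILMN_2944508 had AUF1 levels of 8.27, 8.54, 9.52 and 8.82 on day 0, and IgG levels of 7.04, 7.37, 8.62 and 8.15. On day 6 its AUF1 levels were 8.06, 7.65, 9.08 and 8.57 and its IgG levels were 7.90, 9.10, 9.21 and 8.03. As groups the antibodies overlapped on both days. Between arrays of the same day and experiment number it was higher with AUF1 in all 4 pairs of day 0 (by 0.66 to 1.22), all 3 of day 2 (0.82 to 1.85) and all 3 of day 4 (0.78 to 1.33), and in 2 of 4 on day 6. The mean difference was 0.94 ± 0.33 (estimate ± SE; limma adjusted p of 0.0421) and turned to -0.17 under median scaling. ILMN_2613904 differed by 0.83 ± 0.28 (limma adjusted p of 0.0392), which turned to -0.22 under median scaling, and was higher with AUF1 in 10 of 14 pairs. Its calls were lost in 18 of 35 alternatives and those of ILMN_2944508 in 19 of 36. Under median scaling both differences still lay above the median of all tested probes, which that scaling moved downward.

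The members' courses in the 2 pulldowns were compared directly by the change from day 0 to day 6 with AUF1 minus that with IgG. By limma, 0 members were called higher and 0 lower at adjusted p under 0.05, where 0% of all tested probes were called in each direction. At an unadjusted p under 0.05, 5 members were higher and 2 lower, of 158 and 183 such probes in all. With array weights 1 member was called higher. The members' median difference was -0.0066, and single members ran from -1.31 to 2.10. For ILMN_2730425 it was 1.73 ± 0.73 and for ILMN_2416670 it was 1.74 ± 0.60 (estimate ± SE), with a limma adjusted p of 1 for both, so a different course with the 2 antibodies was not shown for any single member at this number of arrays.

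Members that IgG beads already held above input on day 0 are described last. In the 38 members whose IgG arrays all lay above the input arrays on day 0, the median day 6 change was 0.41 with IgG and 0.66 with AUF1, and 3 and 12 were called higher. Of the other 152 tested members, 55 and 59 were called higher, with medians of 0.95 and 0.80. Over all tested probes 1.94% were called higher with IgG on day 6 and 4.14% with AUF1. AUF1 minus IgG was called lower in 14 of the 38 and higher in 3, and lower in 15 and higher in 15 of the 152, where 11.8% of all tested probes were lower and 9.33% higher. Of the 1106 always-detected probes with IgG above input on day 0, 269 (24.3%) were called lower and 140 (12.7%) higher. The 38 and the 1106 were chosen on IgG day 0 arrays that also enter these changes and differences, which by itself lowers AUF1 minus IgG, so the values have no test.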

How the data were processed

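RNA of C2C12 cells was hybridized to Illumina bead arrays: 15 input, 15 IgG pulldown and 14 AUF1 pulldown arrays. Per the file headers, the authors deposited signal intensities without normalization, and beside each intensity a detection p-value, over 25697 probes. GenomeStudio 1.6.0 is named in the submitters' processing notes; for background subtraction, the method is not given in the sources used. Columns carry a group, an experiment number and an array number and were therefore mapped to groups, not to individual samples. Some experiment numbers occur more than once among the input columns of a day, and these were counted as separate arrays, following the labels. No unused value columns (0) and no identical columns (0 pairs) were found. Input titles speak of DNA while the molecule field gives RNA, which was followed.

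The members were chosen on quantile-normalized log2 signal of the input arrays. The members, lists and tests were chosen with earlier results of these data known. For levels and tests, neqc of limma 3.58.1 (R 4.3.3) was used, which fits a normal-exponential background to controls inferred from detection p-values, adds 16, equalizes quantiles between arrays and returns log2 values, separately for the 15 input and the 29 pulldown arrays. Quantile normalization gives every array the same distribution, so total RNA cannot be compared, and higher and lower are relative to other probes. The 13812 probes detected (p-value under 0.05) on 3 or more of the 29 pulldown arrays were tested with lmFit, contrasts and eBayes, with group means and a common spread over the 8 pulldown groups for each probe. P-values were adjusted by Benjamini-Hochberg over all tested probes, and a probe was called at adjusted p under 0.05. The fit was checked on simulated data with independent noise on each array, for the IgG change on day 6 only. That check does not cover correlation between same-numbered arrays or unequal array quality. The number of arrays limits the precision.

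Experiment numbers were examined as a possible pairing through the correlation, over probes, of same-numbered arrays' deviations from their group means. For AUF1 with IgG the ranges were 0.26 to 0.77, 0.11 to 0.48, -0.09 to 0.72 and 0.16 to 0.84 for days 0, 2, 4 and 6. IgG day 0 correlated with day 2 at 0.54 to 0.72 and with day 4 at 0.50 to 0.73. Where every value was over 0.1 the numbers were taken as pairs, and AUF1 with IgG on day 4 did not reach this. IgG day 0 with day 6, at -0.02 to 0.69, did not either. The block within days and the pair counts nevertheless include day 4. The block across days was fitted over all pulldown arrays, with AUF1 and day 6 included. The unpaired fit was kept as the main one.

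Named probes are the 2 members with the highest input change, up to 2 highest and 2 lowest called members of each comparison, and the probes just inside and outside the limit. The available gene table lists 0 of the probe identifiers, so the gene lists and cell type markers of the design are not analysed here. Alternatives were other background correction, scaling, detection filters, blocks, array sets and array weights, and, added after seeing the data, members chosen without input array 45 and a joint normalization.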

Additional observations from a re-analysis of the deposited data

Results flagged for a closer look

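In all, 5 values of the named probes lay far from the other arrays of their group, by the gap to the nearest array as a share of the range (Dixon's criterion at the 95% level), of 72 groups of 4 or 5 arrays examined. Chance alone gives such a value in about 1 of 20 groups.

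ILMN_2416670 stood at 9.09 on input day 0 array 45, and the next highest day 0 array was at 6.42. ILMN_2482209 stood at 9.79 on AUF1 day 0 array 10 (experiment 2), with the next array at 8.39. ILMN_2416670 was low on AUF1 day 0 array 18 (experiment 3), at 7.56 beside 8.64. ILMN_2730425 was high on AUF1 day 6 array 32 (experiment 4), at 10.74 beside 9.87, and low on input day 6 array 41 (experiment 3), at 11.64 beside 11.86, where the whole group spans a narrow range.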

How the results depend on the processing

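Of 322 counts of members under alternatives, 240 stayed within 1.5 times the reported count and 82 did not. The counts below are given without the share of all tested probes called under each alternative. The rule itself gave 285 members with background-corrected values, which held all 191, 156 with median scaling, and 178 to 229 when an input array was left out. The number of arrays, and the lower detected share on AUF1 arrays, limit what these counts can resolve.

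Median scaling gave 3, 15 and 20 members called higher with IgG on days 2, 4 and 6, and 2, 4 and 21 with AUF1. It left 0 members lower with AUF1 on days 4 and 6, and gave 0 higher and 121 lower for AUF1 minus IgG. ILMN_2944508 then changed sign to -0.17 and ILMN_2613904 to -0.22, both above the median of all tested probes under that scaling. Array weights gave 72, 99 and 104 higher and 2, 1 and 2 lower with IgG, and 57 higher and 2 lower on day 2, 89 higher on day 4 and 3 lower on day 6 with AUF1. They gave 30 higher and 51 lower for AUF1 minus IgG and 1 higher for the difference of courses. In that fit IgG day 6 array 7 had a weight of 13.9, and the other IgG day 6 arrays 0.291 to 1.31, so the day 6 IgG values lean on 1 array.

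With experiment numbers entered as a replicate block, 48 members were higher with IgG on day 2, and 1 and 2 lower on days 4 and 6. With AUF1, whose numbers were not taken as pairs across days (lowest correlations of 0.09, 0.05 and 0.03 with day 0), the block gave 51 higher and 1 lower on day 2, 71 higher on day 4 and 3 lower on day 6. On days 0 and 2, 5 of 6 AUF1 arrays correlated best with their own number, on days 0 and 4, 5 of 6, and on days 0 and 6, 5 of 8; for IgG on days 0 and 6 it was 6 of 8. The block within days gave 42 higher and 58 lower for AUF1 minus IgG, and no other count moved by over 1.5 times under the blocks.

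Without background correction 1 member was lower with IgG on days 4 and 6, and 3 with AUF1 on day 6. Without a detection filter 0 were lower with AUF1 on days 4 and 6, and 9 were higher for AUF1 minus IgG. With probes detected on all pulldown arrays, 1 was lower with IgG on day 6, and 0 and 2 with AUF1 on days 4 and 6. Fits on the arrays of 1 antibody gave 15 higher with IgG on day 2, 1 lower on days 4 and 6, and 0 and 2 lower with AUF1 on days 4 and 6. Without the 5 arrays under 30% detected, 13 were higher with AUF1 on day 2, 8 for AUF1 minus IgG, and 1 lower with IgG on days 4 and 6. Members chosen without input array 45 gave 1 lower with IgG on days 2 and 6 and 2 lower with AUF1 on day 4.

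Leaving out 1 array at a time gave 11 to 26, 46 to 60 and 47 to 56 higher with IgG on days 2, 4 and 6, and 0 to 0, 0 to 1 and 0 to 1 lower. With AUF1 it gave 17 to 38, 36 to 50 and 58 to 69 higher, and 0 to 1, 0 to 1 and 0 to 2 lower. AUF1 minus IgG had 9 to 22 higher and 24 to 33 lower, and the difference of courses 0 to 0. For AUF1 minus IgG the days compared are all days, so a fit on those arrays alone is the reported one. Causes of these shifts were not tested.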
